A study of Mus musculus with 2 samples.

Results

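Collagen chain genes were followed in the ovaries of prenatally androgenized (PNA) mice and control mice. A collagen chain gene was any gene whose symbol in the deposited annotation was Col, a number, the letter a and a second number, with nothing after it, and a probe set listed under several genes was left out. This gave 42 of 20753 genes on the array, measured by 82 probe sets. A probe set is a group of short oligonucleotides that together read 1 transcript, and 27 of the chain genes had more than 1 of them. The RefSeq gene table held 44 genes with such a symbol, and the other two, Col28a1 and Col6a6, were not analysed here.

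The mice were female offspring of the ICR strain. Dams of the PNA group were given 350 µg of DHT (dihydrotestosterone, an androgen that cannot be turned into estrogen) in sesame oil by a daily subcutaneous injection on gestation days 16 to 18, and dams of the control group were given the oil vehicle. PNA mice are a model of polycystic ovary syndrome, and the comparison asks which ovarian transcripts differ after androgen exposure before birth. Each group consisted of 5 ovaries and was read on 1 Affymetrix Mouse Genome 430 2.0 array, so there was no replicate check, no error can be given for a single ratio, and no test was run. No source used here gives the age of these mice or the way RNA of the 5 ovaries was combined. Since whole ovaries were read, fewer cells of a type and less RNA per cell cannot be told apart.

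Collagens are the main structural proteins of the extracellular matrix, and each molecule is a triple helix of 3 chains that are either identical or the products of different genes. Fibrillar collagens form the banded fibers of the stroma, type IV chains form the sheet of the basement membrane, and FACIT chains (fibril-associated collagens with interrupted triple helices) sit on the surface of fibrils. In the ovary, fibrillar collagen fills the tunica and the stroma between follicles, and a basement membrane with type IV collagen separates the granulosa cells of each follicle from the theca. Matrix is laid down and taken apart again with every cycle of follicle growth, ovulation and luteal regression.

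The collagen chains as a group lay close to the same level on both arrays. A signal was taken as above the floor where it exceeded the lowest 40% of probe sets on that array (30.45 for control and 30.65 for PNA, in arbitrary units), and 36 of the 42 chain genes were above it on at least 1 array. With each gene read by its brightest probe set, no chain gene was at least 1.5-fold higher in PNA ovaries, against 2.49% of all genes above the floor. Col8a1 and Col14a1 were the 2 chain genes that fell by at least that much, against 2.16% of all genes. Both calls are lost with 50 added to both signals. On the log2 scale, the median ratio (PNA over control) was 0.03 for the 36 chain genes and -0.01 for all 14117 genes above the floor. Of the 36, 20 had a ratio above 0, 15 had a ratio below 0, and Col22a1 read 33.5 on both arrays. Signals are given below in pairs, control first and PNA second.

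The spread of the chain genes was also close to that of the other genes. The quartiles of the log2 ratio were -0.10 and 0.19 for the 36 chain genes and -0.12 and 0.11 for all genes above the floor. The lowest log2 ratio was -0.63, that of Col8a1, and the highest was 0.55, that of Col1a1, which was just under the 1.5-fold criterion. The 6 chain genes below the floor on both arrays were Col6a5, Col10a1, Col11a2, Col17a1, Col19a1 and Col24a1. No direction is given for those.

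**Figure D1:**
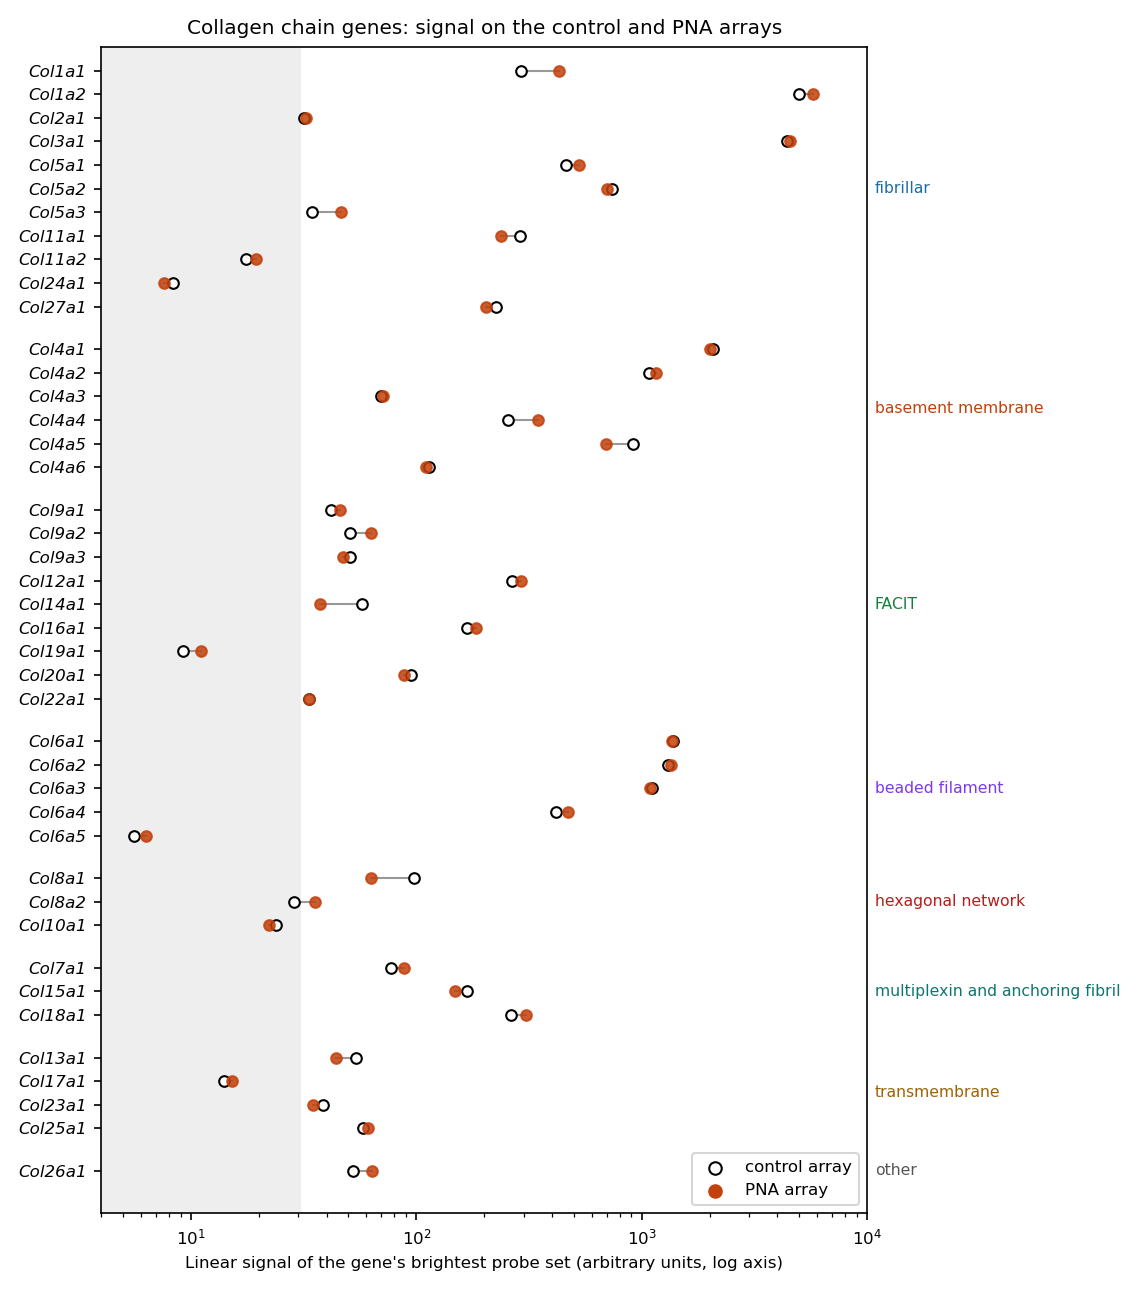
Signal of the brightest probe set of each of the 42 collagen chain genes (arbitrary units, log axis) on the control array (open circles) and the PNA array (filled circles), with 1 array per group and no error bars. The shaded area is the range under the floor. Most pairs of circles overlap or nearly touch, and the widest gaps above the floor are those of Col1a1, Col8a1 and Col14a1.

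The type VIII chains had ratios on opposite sides of 1. Col8a1 and Col8a2 encode short chains that build the hexagonal networks of the vessel wall and of Descemet's membrane in the eye. Col8a1 read 97.9 in the control group and 63.1 in the PNA group, which is 1.55-fold lower. Its next probe set read 44.3 and 28.03, at least 1.45-fold lower when the PNA array is set at the floor, and its dimmest lay below the floor on both arrays. Col8a2 read 28.8 in the control group, under the floor, and 35.4 in the PNA group, which is at least 1.16-fold higher. With the Col8a2 control signal set at the floor, the log2 ratios of the type VIII chains differed by 0.85, and with 50 added to both signals by 0.50. The Col8a1 call is lost with that offset, where its log2 ratio was -0.39.

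Start regions of a pair of chain genes with log2 ratios of unlike sign and of a pair with log2 ratios near 0 are shown beside these values. Windows from 250 bases before to 50 bases after the transcription start were found in RefSeq (GRCm38.p6) for 33 of the 42 chain genes. The type VIII pair is printed because it holds one of the genes that fell, and the Col4a1 and Col4a2 pair because those genes lie head to head and had log2 ratios near 0. The windows are chr16:57754688-57754987 on the minus strand for Col8a1, chr4:126286544-126286843 on the plus strand for Col8a2, chr8:11312777-11313076 on the minus strand for Col4a1 and chr8:11312555-11312854 on the plus strand for Col4a2. Sequences run 5′ to 3′ on the strand of the gene, and capitals mark the CCAAT box (these 5 letters), the GC box, whose letters are GGGCGG, and the TATA box, whose letters are TATAAA, on either strand.
Col8a1: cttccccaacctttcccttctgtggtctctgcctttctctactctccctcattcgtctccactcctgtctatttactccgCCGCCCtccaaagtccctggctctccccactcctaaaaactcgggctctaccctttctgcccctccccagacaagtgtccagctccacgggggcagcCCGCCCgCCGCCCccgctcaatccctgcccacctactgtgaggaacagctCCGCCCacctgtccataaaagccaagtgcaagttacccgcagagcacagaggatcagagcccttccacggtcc
Col8a2: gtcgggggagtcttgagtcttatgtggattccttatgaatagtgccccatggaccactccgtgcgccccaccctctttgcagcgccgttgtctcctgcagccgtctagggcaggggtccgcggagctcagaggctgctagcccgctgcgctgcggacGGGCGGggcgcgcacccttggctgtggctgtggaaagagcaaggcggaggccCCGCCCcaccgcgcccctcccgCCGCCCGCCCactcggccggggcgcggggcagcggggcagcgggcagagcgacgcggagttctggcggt
Col4a1: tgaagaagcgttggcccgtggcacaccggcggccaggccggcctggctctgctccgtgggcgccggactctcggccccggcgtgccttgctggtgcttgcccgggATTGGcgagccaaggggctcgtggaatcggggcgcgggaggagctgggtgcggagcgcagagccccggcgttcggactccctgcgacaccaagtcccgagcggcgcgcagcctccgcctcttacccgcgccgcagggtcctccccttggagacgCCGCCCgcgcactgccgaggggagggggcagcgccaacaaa
Col4a2: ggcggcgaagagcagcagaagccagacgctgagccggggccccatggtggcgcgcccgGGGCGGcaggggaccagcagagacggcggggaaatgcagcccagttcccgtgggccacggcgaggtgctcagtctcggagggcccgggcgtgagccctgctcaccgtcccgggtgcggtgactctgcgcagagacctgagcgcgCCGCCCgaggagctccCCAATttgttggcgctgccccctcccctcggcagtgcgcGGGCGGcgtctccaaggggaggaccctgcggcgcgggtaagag

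The windows of Col8a1 and Col8a2 each held 4 GC boxes, of which a pair overlapped in Col8a2, and neither held a CCAAT or a TATA box. The windows of Col4a1 and Col4a2 shared 78 bases (chr8:11312777-11312854) that are read from opposite strands. Each held 1 CCAAT box, with 1 GC box for Col4a1 and 3 for Col4a2. The GC box of Col4a1 lies in the shared bases and is also 1 of the 3 counted for Col4a2. A GC box was found in 21 of 33 collagen windows (63.6%) and in 35.9% of the windows of 27025 genes. A CCAAT box was found in 12 collagen windows (36.4%) and in 37.9% of all windows, and a TATA box in 5 (15.2%) and in 14.2%. The letters AGAACA, a half-site of the androgen receptor, were found in the windows of Col9a1 and Col20a1 (6.1%) and in 19.0% of all windows. These matches describe letters in a window and not sites in use.

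Fibrillar chains showed no call in either direction. Of 11 genes, 9 were above the floor, their median log2 ratio was 0.03 and their range was -0.28 to 0.55. Type I collagen, the main fiber of stroma, is built from the products of Col1a1 and Col1a2. Col1a1 read 292 in the control and 427 in the PNA group (1.46-fold), and its other probe set read 147 and 169 (1.15-fold). Col1a2 read 4978 and 5765 (1.16-fold) with its brightest probe set and 1016 and 1310 (1.29-fold) with the next. All 4 of these ratios were above 1, and none passed 1.5-fold. The dimmest probe set of Col1a2 aligned to a short stretch inside the gene (chr6:4529699-4530373 on the plus strand in the deposited annotation, whose build is not named) and read 20.9 in the control group, below the floor, and 42.5 in the PNA group. That is a measured log2 ratio of 1.02 and at least 1.39-fold higher against the floor. It was the only collagen probe set at least 1.5-fold higher, of 58 above the floor on at least 1 array (3.04% of all such probe sets were higher).

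Col3a1, whose chains form the thin reticular fibers found with type I collagen, read 4426 and 4534 (log2 ratio 0.03) and, with its other probe set, 517 and 584 (0.18). Type V chains join type I fibrils and set their width. Col5a1 read 462 and 525 (0.19), Col5a2 read 739 and 700 (-0.08) and Col5a3 read 34.6 and 46.2 (0.42), so the chains of type V spanned 0.50 on the log2 scale. The 3 probe sets of Col5a1 lay between 0.19 and 0.32.

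The remaining fibrillar chains above the floor had log2 ratios below or near 0, none past 1.5-fold. Col11a1, a chain of the thin type XI fibril core, read 288 and 237 (-0.28), and its second probe set read 276 and 216 (-0.36). Its partner Col11a2 was below the floor. Col27a1 read 225 and 203 (-0.15), with -0.25 for its other probe set. Col2a1, the chain of the main cartilage collagen, was just above the floor at 31.6 and 32.3 (0.03).

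**Figure D2:**
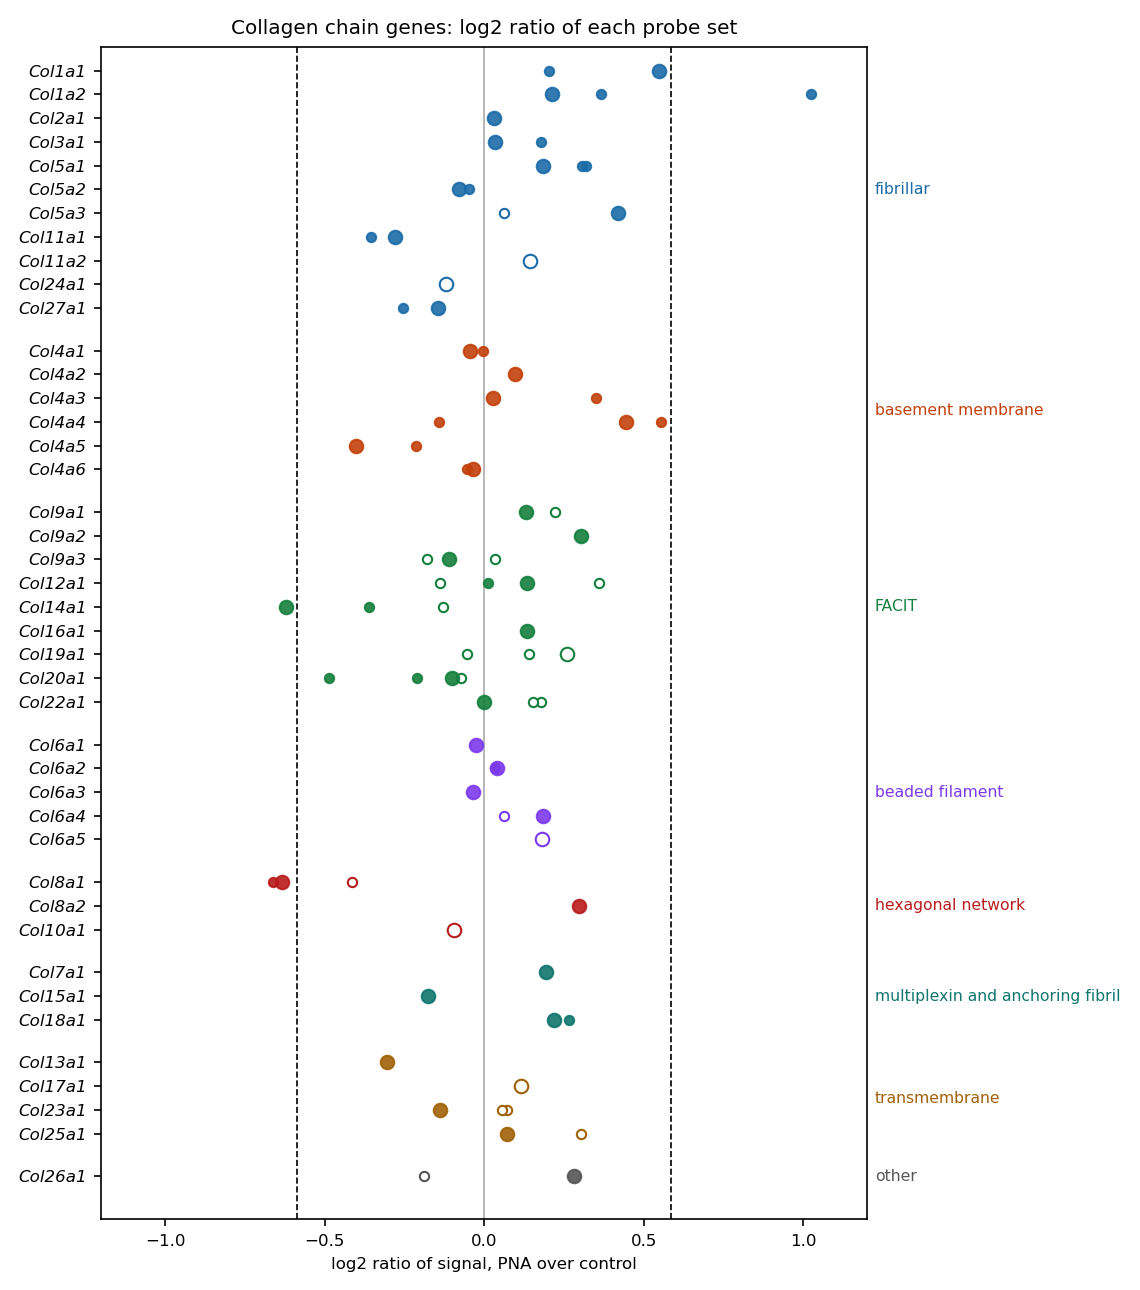
Log2 ratio of signal, PNA over control, for each of the 82 collagen probe sets, by gene and class. Large points are the brightest probe set of a gene, small points its other probe sets, open points lie below the floor on both arrays, and the dashed lines mark 1.5-fold. Left of the lower line lie 2 probe sets of Col8a1 and 1 of Col14a1, and right of the upper line lies the dim probe set of Col1a2.

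The 6 type IV chains of the basement membrane were all above the floor, and none passed 1.5-fold. Their median log2 ratio was -0.003, with a range of -0.40 to 0.44. Col4a1 and Col4a2, whose products form the network found in nearly every basement membrane, differed by 0.14 on the log2 scale. Col4a1 read 2070 and 2005 (-0.05) and, with its second probe set, 839 and 838. Col4a2 read 1078 and 1153 (0.10). These are the genes with the shared start region printed above.

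The more restricted type IV chains spread further, with Col4a4 on the high side and Col4a5 on the low side. Col4a3, Col4a4 and Col4a5 build the network of the kidney glomerulus and are the genes of Alport syndrome. Col4a4 read 255 and 347 (0.44) and 152 and 222 (0.55) with its 2 brighter probe sets, and 74.5 and 67.6 (-0.14) with the dimmest. The brighter ones align to the end of the gene, and the alignment of the dimmest spans most of it. Col4a3 read 69.8 and 71.2 (0.03), and its second probe set was below the floor on the control array at 24.3 and reached 31.0 on the PNA array.

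Col4a5 had the lowest ratio of the class. It read 918 in the control and 695 in the PNA group (-0.40), and 251 and 217 (-0.21) with its second probe set. Col4a6, its neighbor on the X chromosome and its partner in the remaining type IV network, read 114 and 111 (-0.03) and 83.7 and 80.7 (-0.05). The difference between these chains was 0.37, and that between Col4a3 and Col4a4 was 0.42. Over Col4a3, Col4a4 and Col4a5, the chains of the glomerular network, the ratios spanned 0.84, and 0.76 with 50 added to both signals.

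Among the FACIT chains, 8 of 9 genes were above the floor, with a median log2 ratio of 0.07 and a range of -0.62 to 0.30. Col14a1, whose product binds the surface of fibrils and limits their sideways growth, was the 1 member that fell. It read 57.5 in the control and 37.4 in the PNA group, which is 1.54-fold lower, with the probe set aligned at chr15:55467974-55520802 on the plus strand in the deposited annotation. A second probe set that aligns within this stretch read 36.5 and 28.4, at least 1.19-fold lower against the floor. Its dimmest probe set, at 9.39 and 8.59, was below the floor on both arrays. The log2 ratio of Col14a1 was -0.49 as the mean of its probe sets above the floor and -0.30 with 50 added to both signals, both under the criterion, and the gene lies under a floor at the 60th percentile. Col12a1, the FACIT chain closest to it in structure, read 266 and 293 (0.14) and 83.1 and 83.8 (0.01).

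The remaining FACIT chains above the floor had log2 ratios from -0.11 to 0.30 with their brightest probe sets. Col16a1, found on fibrils and fibrillin microfibrils, read 168 and 185 (0.13). The type IX chains, which cover cartilage fibrils, read 41.9 and 45.9 for Col9a1 (0.13), 50.9 and 62.8 for Col9a2 (0.30) and 50.9 and 47.1 for Col9a3 (-0.11). Col20a1 read 94.4 and 88.0 (-0.10), and both of its dimmer probe sets that were above the floor on the control array were under it on the PNA array, at 38.4 and 27.4 and at 35.2 and 30.4.

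The beaded filament chains of type VI, which form the fine microfibrils around cells, had log2 ratios near 0. Col6a1 read 1379 and 1356 (-0.02), Col6a2 read 1308 and 1345 (0.04) and Col6a3 read 1113 and 1086 (-0.04). The 3 chains of this molecule lay within 0.07 of each other on the log2 scale. Col6a4, a further chain of the family, read 415 and 472 (0.18).

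The other classes had no call beyond Col8a1. Col18a1, a basement membrane proteoglycan whose end fragment is endostatin, read 262 and 305 (0.22) and 220 and 265 (0.27), and the related Col15a1 read 168 and 149 (-0.18). Col7a1, the chain of the anchoring fibrils under epithelia, read 77.0 and 88.0 (0.19). The transmembrane chains read 54.2 and 43.9 for Col13a1 (-0.30), 38.5 and 35.0 for Col23a1 (-0.14) and 58.1 and 61.1 for Col25a1 (0.07). Col26a1, which is expressed in the mouse testis and ovary, read 52.5 and 63.8 (0.28).

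Different probe sets of one chain gene mostly gave the same sign. At least 2 probe sets above the floor on both arrays were present for 14 chain genes, with 30 probe sets in all, and their ratios had the same sign in 13 of the 14. Col4a4 was the exception. Over all 5995 genes with such probe sets (16170 in all) the share was 57.1%. The chain genes had fewer such probe sets per gene, which makes the same sign easier to reach. Neither that number nor the signal was matched, so the shares do not show that chain genes were read more reliably. The median range between probe sets of a gene was 0.12 on the log2 scale for the chain genes and 0.15 for all genes. Probe sets of a gene can read different parts of its transcripts and share any error of a whole array. This range is therefore neither the error of a ratio nor the spread between mice. Counted by probe set, 3 collagen probe sets were at least 1.5-fold lower, 2 of Col8a1 and 1 of Col14a1, of the 58 above the floor, against 2.21% of all probe sets.

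**Figure D3:**
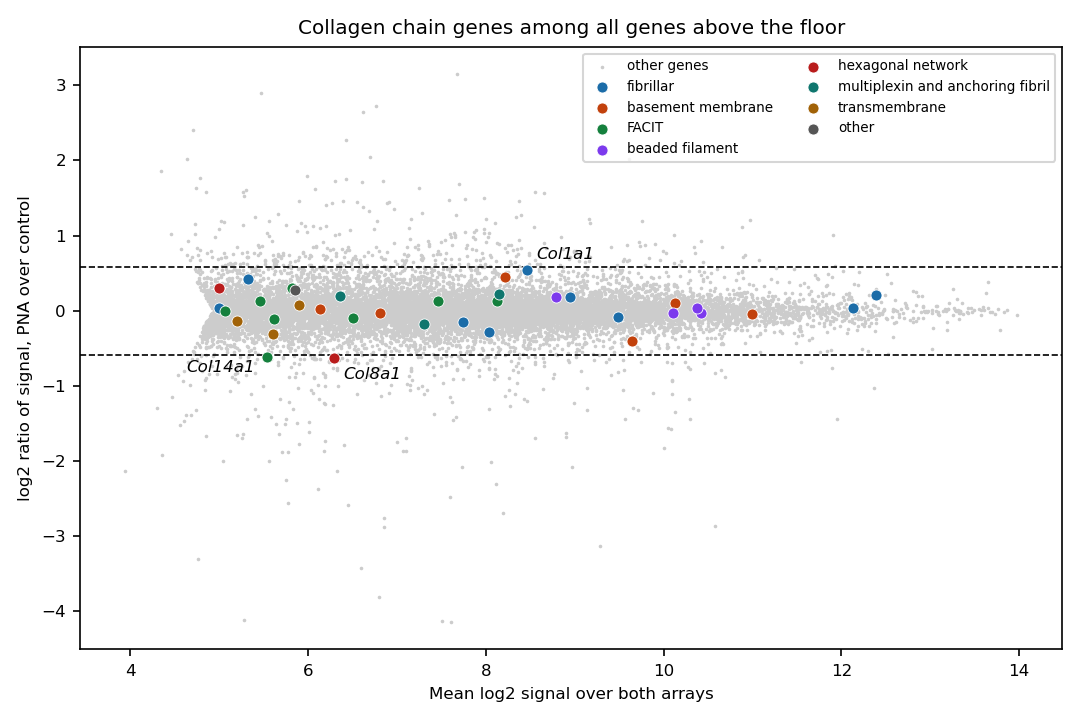
Log2 ratio of signal, PNA over control, against mean log2 signal for the 14117 genes above the floor (gray) and the 36 collagen chain genes among them (colored by class), with dashed lines at 1.5-fold and 1 array per group. The chain genes lie inside the band of the other genes over the whole range of signal, with Col8a1 and Col14a1 just past the lower line and Col1a1 just under the upper one.

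Genes that modify, cross-link, bind or degrade collagen were read in 8 lists, of which 90 of 92 genes were on the array and 72 above the floor. Of these, 2 were at least 1.5-fold higher (Lox and Ctsk) and 2 at least 1.5-fold lower (Fmod and Dpt), and the median log2 ratio was 0.02. These are shares near those of all genes above the floor, 2.49% higher and 2.16% lower, and the lists with a call hold 12 genes or fewer above the floor each. The machinery that makes the triple helix showed no call. The list of prolyl and lysyl modification, which stabilizes the helix, had 0 of 14 genes past 1.5-fold (median -0.05), and that of chaperones and export had 0 of 8 (0.02). Of the genes that cleave propeptides, 4 were above the floor, and 0 passed (0.10). P3h2, a prolyl 3-hydroxylase, read 329 and 489 (0.57), under the criterion, and was picked out after its values were seen.

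Cross-linking enzymes had 1 of 5 genes higher, with a median of 0.35. Lox, the lysyl oxidase that links fibrillar chains to each other, read 180 in the control and 315 in the PNA group, 1.75-fold higher. Among proteases that degrade collagen, 1 of 4 genes above the floor was higher (median 0.40). This was Ctsk, cathepsin K, which can cut within the triple helix and read 43.5 and 144, 3.31-fold higher. Mmp1a, Mmp1b, Mmp8 and Mmp13 of this list were below the floor on both arrays. Mmp2 (965 and 1169), Mmp9 (62.0 and 88.5) and Mmp14 (455 and 460) were above it and under 1.5-fold.

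The proteoglycans and other proteins of the fibril surface had 2 of 12 genes lower and none higher, with a median of -0.07. Fmod, fibromodulin, which binds type I fibrils, read 66.7 and 26.9, at least 2.18-fold lower against the floor. Its probe set carries the suffix _x_at, which Affymetrix gives to probe sets with probes that can match other transcripts. Dpt, dermatopontin, which binds decorin and speeds fibril formation, read 81.8 and 52.9, 1.55-fold lower. The laminins, nidogens and other basement membrane partners had 0 of 16 genes past 1.5-fold (median -0.04), and the collagen receptors had 0 of 9 (0.14).

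**Figure D4:**
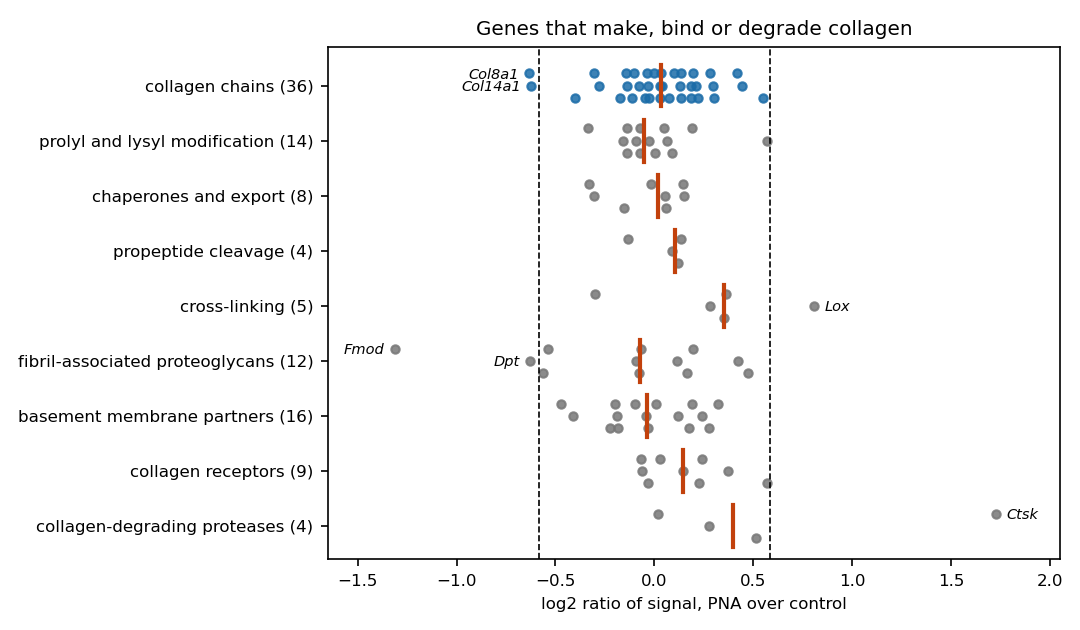
Log2 ratio of signal, PNA over control, for the 36 collagen chain genes and for 8 lists of genes that make, bind or degrade collagen, with the number above the floor in brackets. Each point is 1 gene by its brightest probe set at its measured ratio, red bars are medians and dashed lines mark 1.5-fold. Lox and Ctsk lie right of the upper line and Fmod, Dpt, Col8a1 and Col14a1 left of the lower line.

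Markers of cell types that make collagen gave 1 call over 3 lists. Fibroblast and stroma markers had 0 of 10 genes past 1.5-fold, with a median of 0.19 and summed signals of 7663 (control) and 8822 (PNA). Endothelial markers had 0 of 9, with a median of -0.11 and summed signals of 1715 and 1681. Smooth muscle markers had 1 of 9 lower, Synpo2 at 104 and 67.0, with a median of -0.34 and summed signals of 7600 and 6430.5. Of the 9 log2 ratios, 7 were below 0 and 2 above, those of Smtn (104 and 138) and Des (88.3 and 89.5), both under 1.5-fold. The lower summed smooth muscle signal stands beside the lower Col8a1, and its part in that result was not tested. Leukocyte markers had 2 of 9 higher, S100a8 (54.0 and 176) and S100a9 (46.7 and 158), with summed signals of 1732 and 2458, beside the higher Ctsk, and their part was not tested.

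Cartilage markers were read because several chain genes are known from cartilage. Of 9, 5 were above the floor, and 2 were higher: Comp at 39.4 and 245, 6.24-fold, and Cnmd at 715.5 and 1094, 1.53-fold. Sox9 (54.5 and 60.5), Chad (35.3 and 33.4) and Acan (25.7 and 34.7) were under 1.5-fold. The Acan control signal was below the floor. Matn1, Matn3, Hapln1 and Snorc of the cartilage list were below the floor on both arrays. So were Sp7, Ibsp and Dmp1 of the bone list, in which Phex was lower (187 and 108). The summed cartilage signal was 927 and 1526, and its part in the ratios of Col2a1, Col11a1 and the type IX chains was not tested.

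The tissue read as ovary on both arrays: all 11 granulosa, 10 oocyte, 8 corpus luteum and 6 measured theca and interstitial markers were above the floor. Granulosa markers had 2 of 11 higher, Cyp19a1 (388 and 1578) and Amh (119 and 199), with a median log2 ratio of -0.03 and 6 ratios below 0. Theca and interstitial markers had 1 of 6 higher, Cyp17a1 (2709 and 5448), with a median of 0.10. Corpus luteum markers had 1 of 8 lower, Lhcgr (1246 and 458), with a median of 0.09 and 5 ratios above 0. Oocyte markers had 0 of 10 past 1.5-fold, with a median of 0.21. Markers of the surface epithelium and mesothelium had 2 of 9 higher, Lrrn4 and Krt19, with summed signals of 1179 and 1589.5. Ovgp1, Foxj1 and Pax8 of the oviduct and Adipoq and Lep of fat were below the floor, and the lists of oviduct (1 gene above the floor), fat (2) and skeletal muscle (4) had no gene past 1.5-fold. Signals had a median of 48.7 (control) and 49.5 (PNA), and the ratio of the 3′ to the 5′ probe set of Gapdh, a sign of RNA quality, was 0.740 and 0.734.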

How the data were processed

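The authors deposited a linear signal intensity for each of 45101 probe sets on each of 2 arrays, the log2 values of each probe set after centring across the arrays, and a series table of the same values. The software behind these values is unknown from the sources used here. The linear signals and the deposited log2 values gave the same ratios within 2e-06, so both were on 1 scale between the arrays. Columns of the authors' own comparison (fold changes of differential genes) were not used, and there were 0 columns of other samples. The sample labels speak of diestrus, Bouin's fixation and Trizol extraction without saying which applied to the array ovaries.

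After 64 control probe sets were left out, 38130 probe sets with a single gene symbol gave 20753 genes, each read by its brightest probe set (mean log2 signal). Percentile 40 of an array served as its floor, and no detection call was used. A gene was called at a measured ratio of at least 1.5-fold (0.585 on the log2 scale), the criterion of the study, if it was above the floor on at least 1 array. Where 1 array was below the floor, the fold is given against the floor as "at least". The number of arrays limits the precision, and no p-value was computed. Python 3.11.15 with numpy 2.4.6 and pandas 2.3.3 was used for the ratios, plots with matplotlib 3.10.9, and the steps were tested on simulated data. The 82 alignments of the chain probe sets in the deposited annotation all overlapped the gene of the same symbol in RefSeq (GRCm38.p6). Of all aligned probe sets, 97.5% did. Strand was not part of this check, and 1 probe set of Col12a1, below the floor on both arrays, aligned to the strand opposite to its other probe sets. Start regions came from RefSeq for the same build. Motifs were searched on both strands, overlapping matches included, and counted in 1 window per gene.

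The genes named with both signals were the chain genes and, from the other lists, members past 1.5-fold (up to 4 per pathway list and 3 per marker list). P3h2, other list members named under 1.5-fold and those named as below the floor were picked outside this rule, after their values were seen. Classes of chains, gene lists and markers came from textbook knowledge. The members and lists were chosen with earlier results of these data known. Alternatives were median scaling, quantile normalization, an offset of 50 on both signals, other floors, a loess fit (statsmodels 0.14.6, fraction 0.3), the mean of the probe sets or the one with the largest change, the series values and a criterion of 2-fold. Differences between chains of 1 molecule with dim signals set at the floor, or with the offset, were added after the values were seen.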

Additional observations from a re-analysis of the deposited data

How the results depend on the processing

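Each result rests on 1 array per group, so no array could be left out, and how far PNA ovaries differ from each other is not known from these data. No paired analysis was possible because each group had 1 array. No chain gene with a ratio other than 0 changed sign under any alternative run, and of the medians only that of the basement membrane chains, -0.003, did, to 0.04 with the mean of the probe sets and 0.03 with the probe set of largest change. The count of chain genes at least 1.5-fold lower was 2 under median scaling, quantile normalization and loess. It was 1 (Col8a1) with the floor at the 60th percentile, which removes Col14a1. It was also 1 when a gene was read by the mean of its probe sets, where Col14a1 was at -0.49. With an offset of 50 on both signals, which shrinks the ratios of dim genes, the count was 0, with Col8a1 at -0.39 and Col14a1 at -0.30, and at 2-fold it was 0. Over all genes, 158 were higher and 161 lower with the offset, and 89 and 112 at 2-fold, against 352 and 305.

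The count of chain genes higher was 0 in every alternative but that of the probe set with the largest change, where it was 1, Col1a2 at 1.02. The mean of all probe sets gave 0.53 for Col1a2. The single probe set counted as higher was lost (0) with the offset, with the floor at the 60th percentile and where both arrays had to be above the floor. The probe sets counted as lower went from 3 to 0 with the offset and at 2-fold. They went to 2 where both arrays had to be above the floor and to 1 with the floor at the 60th percentile. The medians of all chains and of the classes moved by less than 0.17, the pooled SD between probe sets of 1 gene, under all alternatives. That SD is not the error of a median. The median of the fibrillar chains went from 0.035 to 0.18 with the probe set of largest change. Median scaling moved the median of all probe sets by -0.02 on the log2 scale.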
